A study of Rattus norvegicus with 12 samples.

Results

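Gene expression in whole kidneys at the peak of L-NAME nephropathy (W0) was compared with that in kidneys of control rats (CTL). The comparison rested on the 3 arrays labelled W0 and the 3 labelled CTL, which are 6 of the 12 arrays of the series, and each array came from 1 male Sprague Dawley rat, numbered here by its replicate number. W0 rats drank L-NAME, a blocker of nitric oxide synthases, at 15 mg/kg per day in water with 6 g/L of NaCl, and were killed when the urinary protein to creatinine ratio exceeded 1 g/mmol. CTL rats were not given L-NAME and were killed at the same age, but whether their water held NaCl is not given in the sources used here, so the effects of L-NAME and of salt cannot be told apart. The weeks of treatment that each W0 rat needed to pass the threshold are not given either. RNA was taken from a piece of a kidney, so every value is a mixture of all its cell types, and fewer cells of a type cannot be told apart from less RNA per cell. The tissue had the marks of kidney in both groups, with the endocytic receptor Lrp2 at log2 levels of 11.05 to 11.22 in CTL and 10.26 to 10.49 in W0, and the podocyte gene Nphs1 at 6.59 to 6.76 and 6.41 to 6.58.

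Nitric oxide is made from arginine by the enzymes Nos1, Nos2 and Nos3 with tetrahydrobiopterin as cofactor, and it relaxes vessels through soluble guanylate cyclase and cyclic GMP. In the kidney it opposes the vasoconstrictors angiotensin II and endothelin-1, and its loss raises blood pressure. The proximal tubule, which reabsorbs most of the filtered solutes and is rich in mitochondria, is the segment best known for losing its transporters after injury. Its injured cells are known to express genes such as Havcr1, Spp1 and Vim that they hardly use at rest.

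Levels are given below as log2 values of the normalized fluorescence, and a change is W0 minus CTL on that scale. A gene is said to have risen, fallen or changed when its adjusted p in limma was under 0.05. By this rule 1708 of 18166 genes (9.4%) changed, 906 (4.99%) upwards and 802 (4.41%) downwards, and in 26.5% of genes the 3 W0 levels lay all above or all below the 3 CTL levels. Among the changed genes the median absolute change was 0.71, and 30 genes rose and 11 fell by at least 4-fold. The count of changed genes was 1070 without CTL rat 1 and 1137 without CTL rat 2. Fallen genes numbered 504 without CTL rat 1, 478 without CTL rat 3 and 521 without W0 rat 3, and risen genes 566 without CTL rat 1 and 555 without CTL rat 2. With every array centred on its median 848 genes rose and 1011 fell, so the larger side turned. The shares above are the background against which the counts of each gene group are set.

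The gene that rose most was Havcr1, the gene of kidney injury molecule-1, a surface receptor of damaged proximal tubule cells. Its level was 4.82, 5.08 and 5.89 in the CTL kidneys and 10.25, 10.79 and 10.26 in the W0 kidneys, a change of 5.17 (SE 0.232, limma adjusted p = 5.38e-08). The groups were far apart, and the CTL kidneys differed more among themselves than the W0 kidneys did. Spp1, which encodes the secreted phosphoprotein osteopontin, was at 9.20, 8.79 and 9.61 in CTL and at 11.77, 11.90 and 11.90 in W0 (change 2.66, SE 0.185, limma adjusted p = 2.43e-06). Clu, which encodes the extracellular chaperone clusterin, went from 8.32, 8.96 and 9.07 to 10.95, 11.23 and 11.31 (change 2.38, SE 0.202, limma adjusted p = 1.52e-05). In both genes the 3 W0 kidneys were nearly level and above every CTL kidney. Niban1, a stress-induced regulator of translation, had the tightest groups of the genes with large rises, with 5.73, 5.72 and 5.78 in CTL and 8.05, 7.92 and 8.01 in W0 (change 2.25, SE 0.117, limma adjusted p = 1.4e-07). At the other end stood Rgn, which encodes the calcium-binding protein regucalcin, at 10.28, 10.05 and 10.13 in CTL and 8.75, 7.58 and 6.75 in W0 (change -2.46, SE 0.367, limma adjusted p = 0.000913). Hnmt, which inactivates histamine by methylation, was at 10.27, 10.18 and 10.30 in CTL and 8.86, 7.96 and 6.95 in W0 (change -2.32, SE 0.335, limma adjusted p = 0.000711). In these fallen genes the CTL kidneys were close together while the W0 kidneys spread over more than a log2 unit, with rat 3 the lowest.

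**Figure D1:**
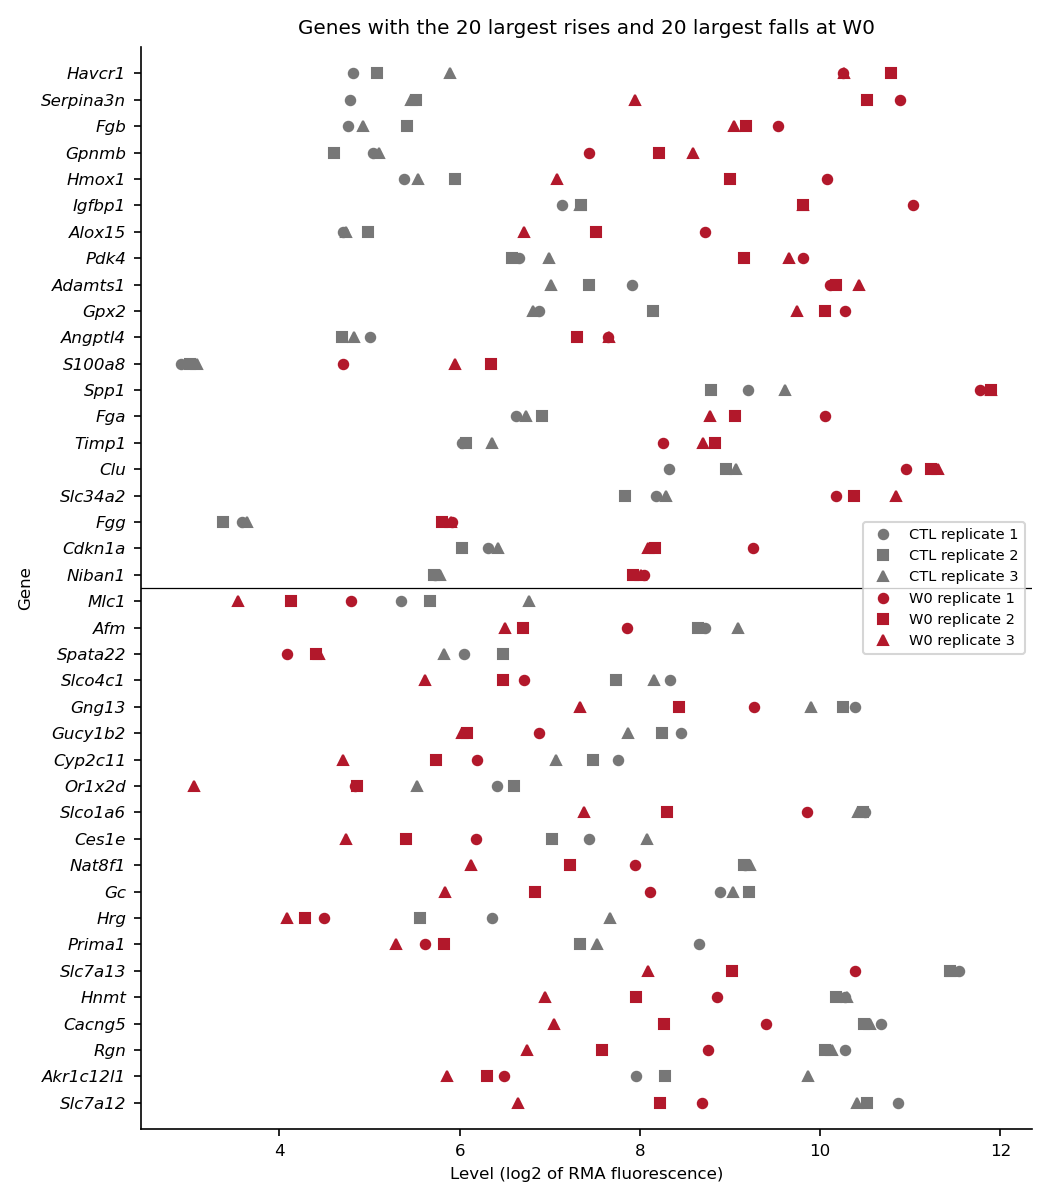
Level (log2 of RMA fluorescence, x axis) of the 20 genes with the largest rises (above the line) and the 20 with the largest falls (below it) in each CTL (grey) and W0 (red) kidney, with rat 1 as circles, 2 as squares and 3 as triangles. W0 rat 3 had the lowest level in 19 of the 20 fallen genes, and W0 rat 1 the highest in 11 of the 20 risen genes.

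The W0 kidneys were less alike than the CTL kidneys. Correlation over all genes was 0.9896 to 0.9899 between CTL arrays and 0.9817 to 0.9891 between W0 arrays, against 0.9719 to 0.9792 between the groups. In a principal component analysis of the 6 arrays the first component (49.9% of the variance) separated the groups, with CTL at -24.9 to -23.8 and W0 at 19.8 to 28.1. The second (19.6%) set W0 rat 1 (29.8) apart from W0 rats 2 (-12.0) and 3 (-17.9). Of the changed genes 64.3% had a larger SD in W0 than in CTL, against 57.2% of all genes.

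This spread had an order that differed between groups of genes. Of the 906 risen genes 40.2% were farthest from the CTL mean in W0 rat 3, 39% in rat 1 and 20.9% in rat 2, and of the 802 fallen genes 50.2% were farthest in rat 3. Serpina3n, which encodes a secreted inhibitor of serine proteases, had the largest SD over the W0 kidneys of all changed genes, at 10.88, 10.52 and 7.94. Zbtb16, a transcription factor known as a target of glucocorticoids, was at 8.64, 7.19 and 5.93 in W0 and at 5.39 to 5.51 in CTL (change 1.81, SE 0.438, limma adjusted p = 0.0181), and its adjusted p was 0.0561 without CTL rat 1, 0.0569 without CTL rat 2 and 0.0852 when the fit held only the 6 arrays. Rat 1 was thus the highest and rat 3 the lowest in both genes. Slc7a13, a transporter of acidic amino acids and cystine in the proximal tubule, ran the same way among the fallen genes, at 10.39, 9.02 and 8.09 in W0 against 11.44 to 11.54 in CTL (change -2.32, SE 0.384, limma adjusted p = 0.00188). Lcn2, which encodes the iron carrier lipocalin-2 of injured tubules, followed neither order. It was at 10.40 and 10.65 in W0 rats 1 and 3 but at 6.67 in rat 2, against 5.92 to 6.37 in CTL, so that a change of 3.04 (SE 1.06) did not pass (limma adjusted p = 0.0954). Without W0 rat 2 it passed (change 4.33, adjusted p = 0.0134).

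**Figure D2:**
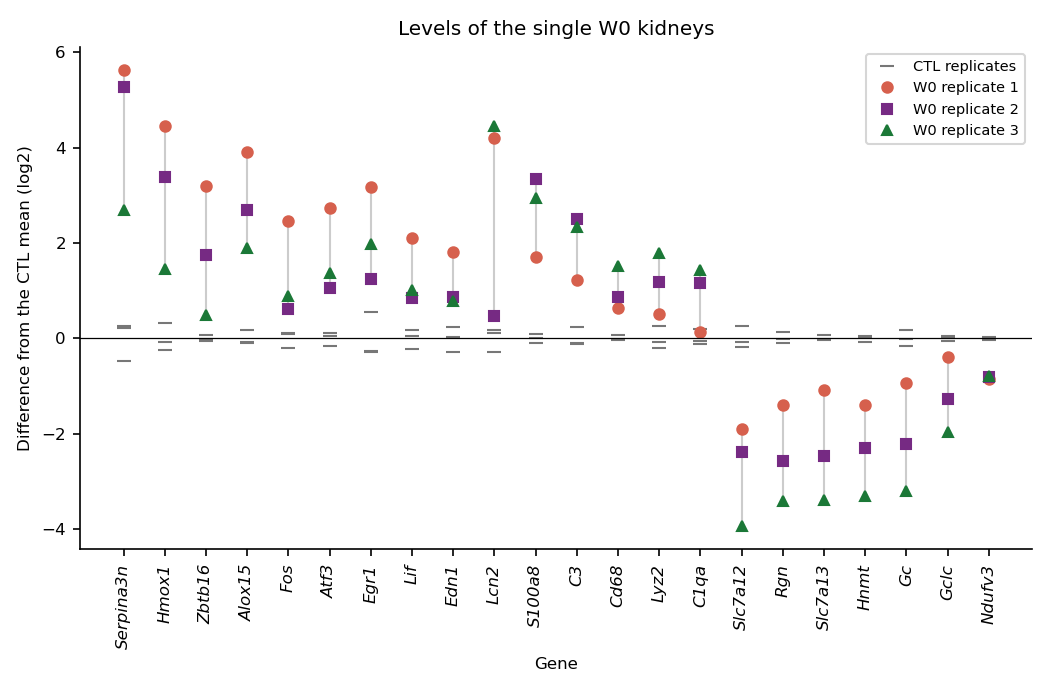
Difference of each W0 kidney from the CTL mean (log2, y axis) for 22 genes, with the CTL kidneys as grey bars around 0; genes were picked after their values were seen, to show the orders found. Rat 1 (circles) was highest for Serpina3n, Hmox1, Zbtb16 and the immediate early genes, while rat 3 (triangles) was highest for Cd68, Lyz2 and C1qa and lowest for Slc7a12, Rgn, Slc7a13, Hnmt, Gc and Gclc.

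Of 18 measured acute phase genes 10 rose and none fell (4.99% of all genes rose), with all 3 fibrinogen chains among the risen ones, and the median change was 1.24 against -0.0062 over all genes. Fibrinogen, the soluble precursor of fibrin, is made mainly by the liver and consists of chains encoded by Fga, Fgb and Fgg. Fgb was at 4.76, 5.41 and 4.93 in CTL and 9.53, 9.18 and 9.04 in W0 (change 4.22, SE 0.216, limma adjusted p = 1.4e-07). Fga went from 6.62, 6.91 and 6.74 to 10.05, 9.05 and 8.78 (change 2.54, SE 0.26, limma adjusted p = 5.73e-05), and Fgg from 3.59, 3.37 and 3.64 to 5.92, 5.80 and 5.9 (change 2.34, SE 0.205, limma adjusted p = 1.86e-05). No W0 level of these 3 genes overlapped with CTL. Alb, the main plasma protein of the liver, was at 3.71 to 4.33 in CTL and 3.66 to 4.08 in W0. Of 8 measured markers of blood, liver, fat and adrenal cells 0 changed, against 9.4% of all genes. With 8 markers this count cannot be told apart from that share, and the source of the fibrinogen RNA was not tested. Serpina3n was at 4.78, 5.51 and 5.46 in CTL, and with the W0 levels given above its change was 4.53 (SE 0.718, limma adjusted p = 0.00137). Cp, which encodes the copper protein and ferroxidase ceruloplasmin, went from 7.79, 7.5 and 7.88 to 9.18, 9.40 and 9.83 (change 1.75, SE 0.157, limma adjusted p = 2.29e-05). Hp, which encodes the haemoglobin scavenger haptoglobin, was at 4.26 to 4.63 in CTL and 4.62 to 4.90 in W0 (change 0.29, adjusted p = 0.378).

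The 3 fibrinogen genes lie on chromosome 2 of the rat, and the 250 bases before their starts are shown because the genes rose together and acute phase genes are known to be switched on by the factor STAT3. Capitals mark matches to the STAT motif TTCNNNGAA or the AP-1 motif TGACTCA on either strand; the STAT motif reads the same on both strands. The sequences are those of RefSeq (build GRCr8), written 5′ to 3′ on the strand of the gene, at chr2:170671919-170672168 (plus strand) for Fga, chr2:170700876-170701125 (minus strand) for Fgb and chr2:170652833-170653082 (plus strand) for Fgg.
Fga: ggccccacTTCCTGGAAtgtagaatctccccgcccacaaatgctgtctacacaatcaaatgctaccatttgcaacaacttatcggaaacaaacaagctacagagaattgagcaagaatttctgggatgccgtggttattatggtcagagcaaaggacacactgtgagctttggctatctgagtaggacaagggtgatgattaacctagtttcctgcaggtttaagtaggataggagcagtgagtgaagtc
Fgb: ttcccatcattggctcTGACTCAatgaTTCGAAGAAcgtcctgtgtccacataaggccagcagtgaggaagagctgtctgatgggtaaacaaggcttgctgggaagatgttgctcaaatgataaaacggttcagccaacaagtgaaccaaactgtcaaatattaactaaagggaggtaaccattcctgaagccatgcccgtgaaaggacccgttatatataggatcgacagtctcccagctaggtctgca
Fgg: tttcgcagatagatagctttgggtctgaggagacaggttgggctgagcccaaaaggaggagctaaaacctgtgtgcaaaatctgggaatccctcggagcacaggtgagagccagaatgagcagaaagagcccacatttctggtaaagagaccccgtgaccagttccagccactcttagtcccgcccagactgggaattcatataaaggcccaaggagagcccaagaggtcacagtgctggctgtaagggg
Fga held 1 STAT match (TTCCTGGAA, bases -242 to -234 from the start), Fgb an AP-1 match (-234 to -228) and a STAT match (TTCGAAGAA, -223 to -215), and Fgg neither. In the same window the STAT motif was present in 6.84% of 14503 genes with a promoter in the table, in 6.62% of 725 risen genes and in 6.47% of 649 fallen genes, and the AP-1 motif in 3.59%, 5.38% and 3.08%. A match is a description of the letters and does not show binding.

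Complement genes rose in 10 of 16 cases (62.5%, against 4.99% of all genes) and none fell, with a median change of 0.66. The central component C3 was at 6.13, 6.11 and 6.47 in CTL and at 7.46, 8.74 and 8.57 in W0 (change 2.02, SE 0.322, limma adjusted p = 0.00144). C7, a part of the membrane attack complex, went from 8.06, 8.49 and 8.56 to 9.47, 9.94 and 10.20 (change 1.49, SE 0.227, limma adjusted p = 0.00101). In both genes W0 rat 1 was the lowest of the W0 kidneys, unlike in the fibrinogen genes. The subunits of C1q, which starts the classical pathway and is known as a product of macrophages, rose by 0.91 (C1qa), 1.21 (C1qb) and 1.1 (C1qc). C1qa overlapped between the groups, at 6.62, 6.68 and 6.94 in CTL and 6.88, 7.91 and 8.18 in W0, and its adjusted p of 0.0415 was 0.124 without CTL rat 1, 0.117 without CTL rat 2, 0.0636 without CTL rat 3, 0.127 without W0 rat 2, 0.165 without W0 rat 3 and 0.11 with the 6 arrays alone. Of the complement members 6 were called without CTL rat 1 and 5 without W0 rat 3.

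Coagulation and fibrinolysis genes outside the fibrinogen chains rose in 6 of 19 cases (31.6%, against 4.99% of all genes), with none lower and a median of 0.30. Anxa2 and S100a10, whose products form the cell surface complex that binds plasminogen and its activator, rose by 1.71 (SE 0.147, limma adjusted p = 1.72e-05) and 1.17 (SE 0.145, limma adjusted p = 0.000229). Plat, which encodes the tissue plasminogen activator, went from 8.14, 8.13 and 8.41 in CTL to 9.28, 9.15 and 9.34 in W0 (change 1.03, SE 0.134, limma adjusted p = 0.000343). These 3 genes had W0 kidneys close together and above CTL. Without CTL rat 2 the count was 3.

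Macrophage markers rose in 8 of 18 cases (44.4%, against 4.99% of all genes) and none fell, with a median of 0.60. Cd68, a lysosomal protein of macrophages, was at 6.23, 6.31 and 6.21 in CTL and 6.88, 7.12 and 7.76 in W0 (change 1.0, SE 0.223, limma adjusted p = 0.0115). The secreted lysozyme gene Lyz2 went from 8.79, 8.67 and 9.13 to 9.37, 10.04 and 10.66 (change 1.16, SE 0.251, limma adjusted p = 0.00996), and Lgals3, which encodes galectin-3 of macrophages and injured epithelium, rose by 1.52. Csf1r, the growth factor receptor of the lineage, was at 7.09, 6.64 and 7.23 in CTL and at 6.99, 7.44 and 8.17 in W0, and did not pass (change 0.55, adjusted p = 0.208; 0.82 and 0.0466 without W0 rat 1). The mean level of the 18 markers was 6.07 to 6.16 in the CTL kidneys and 6.43, 6.70 and 7.17 in W0 rats 1, 2 and 3. Cd68 and Lyz2, which are part of that mean, stood in the same order, and so did the complement gene C1qa. Among risen members W0 rat 3 was the highest kidney in 6 of 8 macrophage markers and in 8 of 10 complement genes. W0 rat 1 was the highest in 2 of the 8 macrophage markers. The lysosome gene Ctsd was highest in W0 rat 2 instead. The part of macrophages in the complement and lysosome results was not tested.

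Other cells of the blood gave fewer changes. S100a8 and S100a9, which form the calcium-binding protein calprotectin of neutrophils and monocytes, were at 2.91 to 3.08 and 3.92 to 4.36 in CTL, and at 4.71, 6.35 and 5.95 (S100a8) and 5.56, 6.66 and 6.61 (S100a9) in W0. Their changes were 2.67 (SE 0.743, limma adjusted p = 0.0371) and 2.18 (SE 0.524, adjusted p = 0.0177). Of the neutrophil markers 3 of 11 rose (27.3%, against 4.99% of all genes). The call of S100a8 was lost without any single CTL array (adjusted p = 0.0973, 0.0958 and 0.0865 for rats 1, 2 and 3) and without W0 rat 2 (0.114) or 3 (0.106), and with a trended and robust variance (0.118). That of S100a9 was lost without CTL rat 1 (0.0567) or 3 (0.0603) and without W0 rat 2 (0.0588) or 3 (0.0642), and with the trended and robust variance (0.0542). The neutrophil count was 1 with that variance or without the genes of lowest level, and it was 0 without CTL rat 1, W0 rat 2 or W0 rat 3, and 1 without CTL rat 2 or 3. Of 20 markers of T, NK and B lymphocytes 1 rose, a share of 5% near the 4.99% of all genes. It was Blnk, an adaptor of the B cell receptor (0.82, adjusted p = 0.000768). Without W0 rat 1 or with the 6 arrays alone 2 members were called. The T cell receptor subunit Cd3e had a change of 0.53 (adjusted p = 0.176).

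Signalling genes of inflammation rose in part. Of 34 chemokines, cytokines and receptors 9 rose and 1 fell (29.4% changed, against 9.4% of all genes, median 0.38). Osmr, the receptor of oncostatin M, was at 6.33, 5.99 and 6.46 in CTL and 9.10, 7.79 and 8.18 in W0 (change 2.10, SE 0.248, limma adjusted p = 0.000174), and Lif, a cytokine of the same family, at 4.92, 5.19 and 5.33 and at 7.26, 5.99 and 6.15 (change 1.32, SE 0.26, limma adjusted p = 0.0057). Both were highest in W0 rat 1. Il1rn, which encodes the natural antagonist of interleukin-1, rose by 1.12 and the chemokine receptor Cxcr4 by 1.15. The Cxcr4 ligand Cxcl12 was at 9.45, 9.28 and 9.48 in CTL and 7.90, 8.31 and 8.84 in W0 (change -1.05, SE 0.197, limma adjusted p = 0.00411, named after its value was seen). Cxcl12 was the only member of the list called lower, but the lowest change of the list, -1.8, was that of a member that did not pass. Ccl2, the chemokine that attracts monocytes, had a change of 0.53 (adjusted p = 0.285). Interferon response genes rose in 3 and fell in 1 of 23 cases (17.4% changed, against 9.4% of all genes) with a median of 0.00, and 2 were called without CTL rat 1 or W0 rat 3. Cxcl11, a chemokine induced by interferon, rose by 1.15 (adjusted p = 0.000644). In the MHC class II pathway RT1-DMa, which loads peptides, rose by 0.84 (adjusted p = 0.000868), and 4 of 17 genes of antigen presentation rose (1 called without CTL rat 1 or 2, 2 without W0 rat 2 or 3, or with the 6 arrays alone).

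Of 24 measured genes of the immediate early response 14 rose and none fell. Genes of this response, many of them transcription factors, are known to be switched on within minutes of a stimulus and without new protein synthesis. The median change was 0.78, and all 24 changes were above 0. Egr1, a zinc finger factor, was at 8.10, 7.29 and 7.25 in CTL and 10.71, 8.78 and 9.52 in W0 (change 2.12, SE 0.385, limma adjusted p = 0.00336). Atf3, a factor of the stress response, went from 5.73, 5.53 and 5.81 to 8.42, 6.74 and 7.06 (change 1.72, SE 0.331, limma adjusted p = 0.00512). The growth regulator Myc went from 5.94, 5.78 and 5.67 to 8.17, 6.99 and 7.5 (change 1.76, SE 0.226, limma adjusted p = 0.000315), and Klf6, a Krüppel-like factor of injured epithelium, rose by 1.85 (adjusted p = 0.000164). W0 rat 1 was the highest kidney in each of these and in 13 of the 14 risen members. Fos, which forms the factor AP-1 with Jun proteins, was at 4.63, 4.31 and 4.62 in CTL and 6.97, 5.14 and 5.40 in W0 (change 1.32, SE 0.346, limma adjusted p = 0.0279), and its adjusted p was 0.063, 0.0995 and 0.0632 without CTL rats 1, 2 and 3, and 0.0938 with the 6 arrays alone. The count was 9 without CTL rat 2 or 3.

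Cdkn1a, the cyclin-dependent kinase inhibitor p21 that arrests the cell cycle, was at 6.31, 6.03 and 6.43 in CTL and 9.25, 8.17 and 8.09 in W0 (change 2.25, SE 0.243, limma adjusted p = 9.33e-05). Of 24 targets of p53 and genes of apoptosis 5 rose and 1 fell (median 0.31), among them Tnfrsf10b, a death receptor (0.75, adjusted p = 0.00818). Mdm2, the ubiquitin ligase that p53 itself induces, had a change of 0.10 (adjusted p = 0.695). The cell cycle list had 6 of 32 members higher and 2 lower (25% changed, against 9.4% of all genes). Its median was 0.41, and 29 of the 32 changes were above 0 and 3 below. Prc1, a protein of the mitotic spindle, went from 4.88, 4.59 and 4.39 to 5.53, 5.94 and 5.32 (change 0.98, SE 0.206, limma adjusted p = 0.00833), and Top2a, the topoisomerase of dividing cells, from 5.00, 5.61 and 5.42 to 5.79, 6.64 and 5.85 (change 0.75, adjusted p = 0.0931). Both were highest in W0 rat 2. Melk, a kinase known from dividing cells, moved the other way, from 7.12, 6.80 and 7.02 to 6.25, 5.22 and 4.73 (change -1.58, SE 0.274, limma adjusted p = 0.00256). The count of cell cycle members called was 3 without CTL rat 1 or W0 rat 2 and 5 without CTL rat 3.

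Of the nitric oxide and cyclic GMP list 6 of 25 members (24%, against 9.4% of all genes) changed, 2 upwards and 4 downwards, with a median of 0.04. Nos3, the endothelial synthase, was at 5.54, 5.50 and 5.65 in CTL and 6.20, 6.01 and 5.68 in W0 (change 0.40, SE 0.155, adjusted p = 0.137), and Nos1, the neuronal form, had a change of 0.18 (adjusted p = 0.549). Neither synthase passed. Gchfr, whose product restrains the first enzyme of tetrahydrobiopterin synthesis, was at 9.0, 8.86 and 9.32 in CTL and 8.27, 8.17 and 7.73 in W0 (change -1.0, SE 0.213, limma adjusted p = 0.00875). Pts and Spr, which catalyse the following steps of that synthesis, fell by 0.69 (adjusted p = 0.0169; 0.0782 without CTL rat 3 and 0.0618 without W0 rat 1) and by 0.59 (adjusted p = 0.0178; 0.0566 and 0.0582 without CTL rats 2 and 3, 0.0802 without W0 rat 3). Prkg2, a protein kinase activated by cyclic GMP, fell by 0.53 (adjusted p = 0.0413). The risen members were Slc7a1, a carrier of arginine, from 6.52, 6.28 and 6.74 to 7.37, 6.87 and 7.18 (change 0.63, SE 0.177, limma adjusted p = 0.0398), and Pde5a, which degrades cyclic GMP, by 0.54 (adjusted p = 0.0181). Prkg2 and Pde5a are named after their values were seen. The call of Slc7a1 was lost without CTL rat 1 (0.0972) or 2 (0.155), without W0 rat 1 (0.134) or 3 (0.108) and with the 6 arrays alone (0.0645), and that of Pde5a without CTL rat 2 (0.0692) or 3 (0.0722) or W0 rat 3 (0.0723). That of Prkg2 was lost without CTL rat 1 (0.166) or 3 (0.0965), without W0 rat 1 (0.0834), 2 (0.0873) or 3 (0.0976) and with the 6 arrays alone (0.0555). The list had 3 calls without CTL rat 2 and 2 without CTL rat 3 or W0 rat 3. Gucy1b2, a beta subunit of soluble guanylate cyclase known from kidney, was among the genes that fell most, from 8.46, 8.24 and 7.87 to 6.88, 6.08 and 6.03 (change -1.86, SE 0.212, limma adjusted p = 0.000132). It was not on the list. The subunits on the list did not pass, with changes of 0.48 for Gucy1a1 (adjusted p = 0.265), 0.10 for Gucy1b1 (0.866) and 0.09 for Gucy1a2 (0.839). These subunits are named after their values were seen, and their calls were not followed in the alternatives.

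Among the systems that oppose nitric oxide, Edn1, which encodes endothelin-1, rose from 4.95, 5.27 and 5.48 to 7.05, 6.09 and 6.02 (change 1.15, SE 0.24, limma adjusted p = 0.00786). Agtr1a, the main angiotensin II receptor of the rat kidney, fell from 7.74, 7.60 and 7.64 to 6.56, 6.88 and 7.11 (change -0.81, SE 0.158, limma adjusted p = 0.00542). Mme, the brush border protease neprilysin that degrades natriuretic peptides and endothelin, fell from 10.50, 10.32 and 10.35 to 9.81, 9.05 and 8.81 (change -1.17, SE 0.228, limma adjusted p = 0.00542). These were the 3 changed genes of 19 measured in this list, whose count was 6 without W0 rat 3 and 5 without the genes of lowest level. Angiotensinogen, Agt, was at 8.32, 8.14 and 7.88 in CTL and at 8.43, 7.43 and 7.21 in W0 (change -0.42, adjusted p = 0.414), and without W0 rat 1 its change was -0.79 (adjusted p = 0.0376).

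Targets of the oxidative stress factor NRF2 split into 5 risen and 5 fallen members of 23, with a median of 0.02. Hmox1, which opens the haem ring, had the largest rise, from 5.38, 5.95 and 5.54 to 10.08, 9.0 and 7.08 (change 3.10, SE 0.54, limma adjusted p = 0.00259). Gpx2, a glutathione peroxidase, went from 6.88, 8.14 and 6.81 to 10.27, 10.05 and 9.74 (change 2.75, SE 0.449, limma adjusted p = 0.00169). Gclc and Gclm, the subunits of the enzyme that begins glutathione synthesis, moved the other way. Gclc was at 11.61, 11.49 and 11.56 in CTL and 11.17, 10.28 and 9.58 in W0 (change -1.21, SE 0.275, limma adjusted p = 0.013; 0.0611 with the 6 arrays alone), and Gclm at 10.96, 10.70 and 10.96 and at 10.59, 9.88 and 9.40 (change -0.92, SE 0.231, limma adjusted p = 0.0228). Osgin1, a growth inhibitor induced by oxidative stress, fell by 1.56 (adjusted p = 0.0129; 0.0545 without CTL rat 1 and 0.0514 with the 6 arrays alone), and Nqo1, a quinone reductase and a standard target of NRF2, had a change of 0.29 (adjusted p = 0.272). All 5 fallen members, which include Me1 and Gsta1, were lowest in W0 rat 3. Gclc, Gclm, Me1 and Gsta1 are named after their values were seen. The call of Gclm was lost with the 6 arrays alone (0.0746) and without CTL rat 1 (0.0748), CTL rat 3 (0.0736), W0 rat 2 (0.0626) or W0 rat 3 (0.0886), and that of Me1 with the 6 arrays alone (0.0722) and without CTL rat 2 (0.0783), CTL rat 3 (0.102) or W0 rat 3 (0.0897). The count of members called was 5 without CTL rat 1, 6 without W0 rat 3 and 4 with the 6 arrays alone.

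Gpx2 and Gclm, which moved in opposite directions, both held a match to the core of the antioxidant response element, TGACNNNGC, to which NRF2 is known to bind. The 250 bases before their starts (RefSeq, build GRCr8, 5′ to 3′ on the strand of the gene) are shown to place the matches, at chr6:101230034-101230283 (minus strand) for Gpx2 and chr2:213031885-213032134 (plus strand) for Gclm, with matches to that motif and to the STAT and AP-1 motifs in capitals.
Gpx2: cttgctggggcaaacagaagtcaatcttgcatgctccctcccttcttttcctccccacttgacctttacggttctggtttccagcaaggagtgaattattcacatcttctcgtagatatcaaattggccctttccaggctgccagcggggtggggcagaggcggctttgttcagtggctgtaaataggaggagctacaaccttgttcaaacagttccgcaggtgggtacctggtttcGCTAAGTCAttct
Gclm: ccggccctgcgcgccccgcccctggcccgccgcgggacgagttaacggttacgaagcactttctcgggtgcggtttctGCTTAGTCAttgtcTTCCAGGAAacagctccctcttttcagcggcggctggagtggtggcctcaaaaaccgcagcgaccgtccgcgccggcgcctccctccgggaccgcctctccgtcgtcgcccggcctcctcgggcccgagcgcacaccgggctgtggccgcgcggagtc
The match of Gpx2 (GCTAAGTCA, bases -13 to -5) and that of Gclm (GCTTAGTCA, -172 to -164) were both on the other strand, and Gclm also held a STAT match (TTCCAGGAA, -158 to -150). The antioxidant motif was in 11.3% of all 14503 promoters, in 12.4% of those of risen genes and in 12.3% of those of fallen genes.

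Iron and haem genes also moved both ways, with 4 of 18 higher, 2 lower and a median of 0.12. Blvra, which turns the biliverdin made by haem oxygenase into bilirubin, fell from 9.39, 9.28 and 9.43 to 7.99, 7.92 and 7.90 (change -1.43, SE 0.176, limma adjusted p = 0.000223), and its W0 kidneys were level where those of Hmox1 were spread. Slc39a14, an importer of zinc and iron, rose from 6.12, 5.80 and 6.15 to 8.17, 7.2 and 6.83 (change 1.38, SE 0.243, limma adjusted p = 0.00277). The transferrin receptor Tfrc had a change of -0.40 (adjusted p = 0.161).

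In the handling of phosphate, calcium and vitamin D 4 of 18 genes rose and 5 fell (median -0.46). Slc34a1, the main phosphate transporter of the proximal tubule, fell from 11.94, 11.65 and 11.85 to 11.43, 10.93 and 10.88 (change -0.74, SE 0.152, limma adjusted p = 0.00744). Slc34a2, a phosphate transporter best known from intestine and lung, rose from 8.18, 7.83 and 8.29 to 10.18, 10.37 and 10.84 (change 2.37, SE 0.217, limma adjusted p = 2.46e-05). Both genes were free of overlap between the groups. The receptors of the hormones that lower phosphate uptake fell, Kl, which encodes the FGF23 co-receptor klotho, from 9.92, 9.99 and 9.87 to 9.05, 8.89 and 8.75 (change -1.03, SE 0.149, limma adjusted p = 0.00073) and Pth1r, the parathyroid hormone receptor, by 1.04 (adjusted p = 0.00129). Gc, which encodes the vitamin D binding protein, was at 8.89, 9.21 and 9.03 in CTL and 8.11, 6.83 and 5.84 in W0 (change -2.12, SE 0.455, limma adjusted p = 0.00964). Trpv5 and Trpv6, the calcium channels of the distal tubule, rose from 5.1 to 5.44 and 4.38 to 4.76 in CTL to 6.24 to 6.77 and 5.48 to 5.7 in W0, by 1.15 (adjusted p = 0.00101) and 1.03 (adjusted p = 0.00133; Trpv6 is named after its value was seen).

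**Figure D3:**
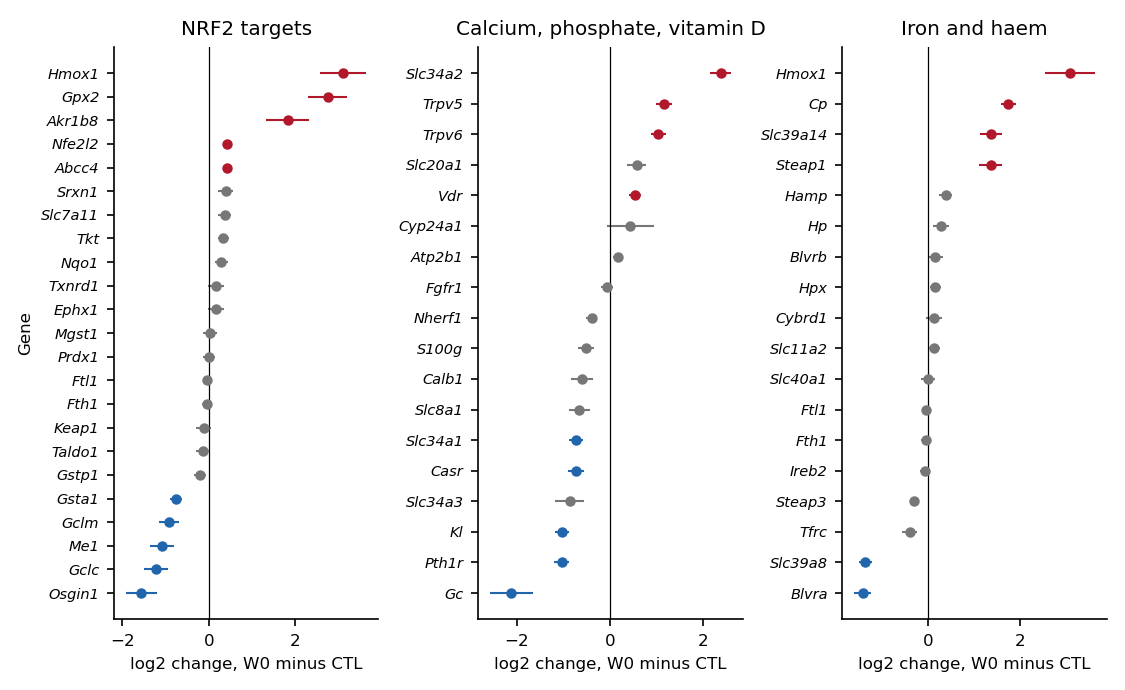
Change from CTL to W0 (log2, x axis) with its standard error for the measured members of the lists of NRF2 targets, of calcium, phosphate and vitamin D, and of iron and haem, with risen members in red, fallen members in blue and others in grey. The first list held 5 risen and 5 fallen members, the second 4 and 5, and the third 4 and 2.

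Of 13 measured markers of the proximal tubule 7 fell and none rose (4.41% of all genes fell), with a median of -0.74, and the mean level of the 13 was 10.67 to 10.86 in CTL and 10.21, 10.16 and 9.91 in W0. Miox, which breaks down inositol, was at 11.98, 11.91 and 11.97 in CTL and 11.34, 10.74 and 10.62 in W0 (change -1.05, SE 0.17, limma adjusted p = 0.00156), and the brush border peptidase Anpep fell by 1.1 (adjusted p = 0.00561). Lrp2, which encodes megalin, fell by 0.76 (SE 0.115, limma adjusted p = 0.00101), whereas Cubn, its partner in the uptake of filtered protein, was at 10.25 to 10.38 in CTL and 10.41 to 10.65 in W0 (change 0.22, adjusted p = 0.302). Each W0 level of Cubn was above CTL, and each W0 level of Lrp2 below it. Of 11 genes of protein reabsorption 1 changed, Lrp2, a share of 9.09% near the 9.4% of all genes. The glucose transporter Slc2a2, which lets glucose out at the basal side of the proximal tubule cell, rose from 8.03, 8.16 and 7.73 to 9.43, 9.53 and 8.92 (change 1.32, SE 0.189, limma adjusted p = 0.000688).

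Of 19 amino acid and peptide transporters 6 fell and none rose (median -0.44), and 3 were called without CTL rat 1. Slc7a12, a small neutral amino acid transporter, fell most, from 10.86, 10.52 and 10.41 to 8.69, 8.22 and 6.65 (change -2.74, SE 0.475, limma adjusted p = 0.00251). Slc15a2, which takes up small peptides, fell from 9.31, 9.31 and 9.37 to 7.82, 8.16 and 7.74 (change -1.42, SE 0.125, limma adjusted p = 1.86e-05). All 6 fallen members were lowest in W0 rat 3. Of 21 organic ion transporters 6 fell and 1 rose (median -0.63), with 4 called without CTL rat 1, 11 with the arrays centred and 12 without the genes of lowest level. Slc22a6, the organic anion transporter OAT1, was at 10.68, 10.68 and 10.65 in CTL and 9.64, 9.89 and 9.70 in W0 (change -0.93, SE 0.133, limma adjusted p = 0.000688), and Slco4c1, which carries digoxin and thyroid hormone, fell by 1.81 (adjusted p = 0.000424). The change of Slc22a8, which encodes OAT3, was -0.79 (SE 0.239, adjusted p = 0.0549), and it passed with the 6 arrays alone (0.0357), with the arrays centred (0.0453) and without the genes of lowest level (0.0424). These falls went with that of the proximal tubule markers, but the lists share members. Slc22a6 and Slc22a8 are also proximal tubule markers, and so is the amino acid transporter Slc7a13. The share of the segment in these falls was not tested.

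Among the factors that set tubule identity, 3 of 22 rose and 3 fell (median -0.21; 3 called without CTL rat 1). Hnf4g, a nuclear receptor of proximal tubule genes, fell by 0.89 (adjusted p = 0.00505). Pax8, a factor of the developing nephron, rose from 8.65, 8.43 and 8.58 to 9.44, 9.37 and 9.22 (change 0.79, SE 0.131, limma adjusted p = 0.0019), and Runx1, best known from blood formation, by 1.18 (adjusted p = 0.000381). Sox9, a factor of regenerating tubule cells, was at 5.03 to 5.41 in CTL and 5.1 to 5.23 in W0, with a change of 0.00 (SE 0.127, adjusted p = 0.994).

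Enzymes of fuel use were divided. Pdk4, which holds pyruvate back from the citrate cycle, was at 6.66, 6.58 and 6.99 in CTL and 9.81, 9.15 and 9.65 in W0 (change 2.79, SE 0.186, limma adjusted p = 1.77e-06), and Angptl4, which inhibits lipoprotein lipase, went from 5.01, 4.69 and 4.83 to 7.65, 7.30 and 7.66 (change 2.69, SE 0.169, limma adjusted p = 1.17e-06). Both are known targets of the lipid sensor PPAR-alpha, whose part in these changes was not tested. Of the 34 fatty acid oxidation genes to which they were assigned 4 rose and 3 fell, with a median of -0.11. The peroxisomal enzyme Cat, which encodes catalase, fell by 0.65 (adjusted p = 0.0112), and Cpt1a, which admits long-chain fatty acids to the mitochondrion, had a change of 0.40 (adjusted p = 0.225), which passed without W0 rat 3 (0.66, adjusted p = 0.021). The count was 3 without CTL rat 1 or 3 or with the 6 arrays alone and 4 without CTL rat 2. Of 12 genes of glucose production and fructose use 4 fell and 1 rose (median -0.48). Pc, which starts glucose synthesis from pyruvate, fell from 9.28, 9.07 and 9.06 to 8.63, 8.01 and 7.98 (change -0.93, SE 0.184, limma adjusted p = 0.00575), Khk, which begins fructose breakdown, by 0.96 (adjusted p = 0.00617) and Fbp1 by 0.80 (adjusted p = 0.00464), while Pck1, the step most often used as a mark of glucose synthesis, had a change of 0.41 (adjusted p = 0.126). In glycolysis 4 of 11 genes rose and none fell (median 0.22), with Ldha, the lactate dehydrogenase of muscle type, higher by 0.78 (adjusted p = 0.0108) and the phosphofructokinase Pfkp by 0.66 (adjusted p = 0.00802).

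Of 58 measured subunits and carriers 12 fell and none rose, 57 of the 58 changes were below 0, and in 43 every W0 kidney was below every CTL kidney (26.5% of all genes were free of overlap in either direction). The median was -0.30, and it was -0.33 with the arrays centred (20 members called) and -0.26 with quantile normalization repeated (16 called), against medians of -0.0372 and -0.0041 over all genes. Ndufv3, a subunit of complex I, fell furthest, from 10.57, 10.60 and 10.64 to 9.76, 9.80 and 9.81 (change -0.81, SE 0.105, limma adjusted p = 0.000315), and Cycs, which encodes cytochrome c, from 10.12, 10.46 and 10.26 to 9.82, 9.59 and 9.45 (change -0.66, SE 0.128, limma adjusted p = 0.0054). The W0 kidneys of Ndufv3 were almost level, without the spread seen in transporters. Cox4i1, a subunit of complex IV, was at 11.35 to 11.52 in CTL and 11.20 to 11.40 in W0 (change -0.11, adjusted p = 0.608). The number of members called rested on single arrays, with 7, 6 and 2 without CTL rats 1, 2 and 3, 4 without W0 rat 1 and 3 without W0 rat 3, while the median stayed between -0.38 and -0.25 in the 6 fits that leave out an array. Citrate cycle genes had a median of -0.24, and 2 of 17 fell (4 called with the arrays centred), but 0 were called when any one array was left out or with the 6 arrays alone. Ribosomal protein genes had a median of 0.17 over 54 members, of which 3 rose and none fell (5.56% called, against 9.4% of all genes changed and 4.99% risen; 0 without W0 rat 3, 1 without CTL rat 1 or 2, without W0 rat 2 or with the 6 arrays alone). Rpl3 rose by 0.54 (adjusted p = 0.0116; 0.0565 without W0 rat 3), and Rplp0 had a change of 0.27 (adjusted p = 0.218).

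**Figure D4:**
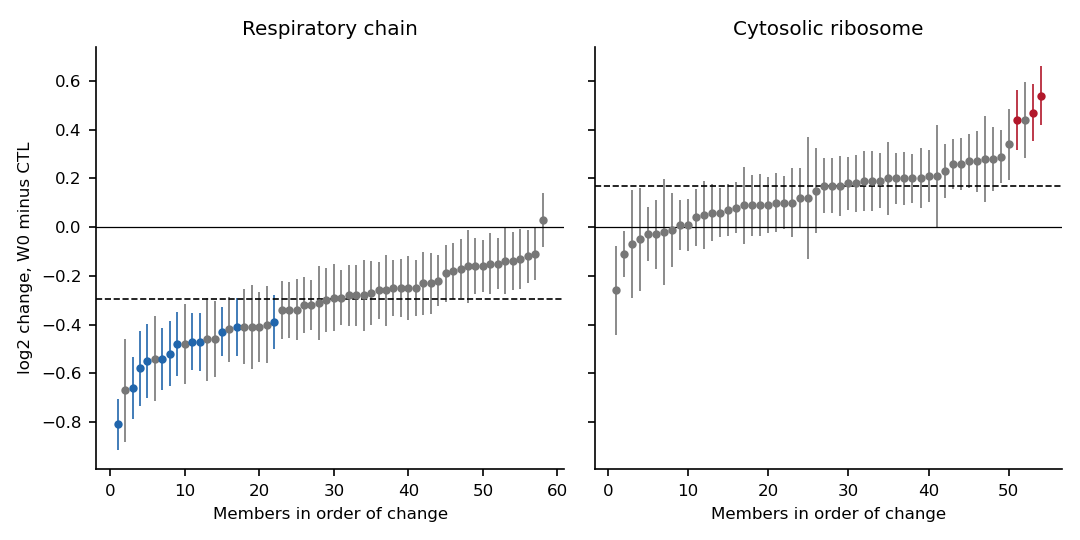
Change from CTL to W0 (log2, y axis) with its standard error for 58 respiratory chain genes (left) and 54 ribosomal protein genes (right), in order of change, with fallen members in blue, risen members in red and others in grey. Dashed lines mark the medians of -0.30 and 0.17.

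Of 22 collagen genes 9 rose and 1 fell (median 0.35). The fibrillar collagen Col3a1 was at 6.17, 6.21 and 6.43 in CTL and 7.57, 7.53 and 7.58 in W0 (change 1.29, SE 0.15, limma adjusted p = 0.000161), and Col4a1, of all basement membranes, at 6.93, 6.81 and 6.92 and at 7.99, 8.04 and 7.83 (change 1.07, SE 0.123, limma adjusted p = 0.000144). The 3 W0 kidneys were level in both. Col4a4, a chain of the mature glomerular basement membrane, was the one that fell, from 8.26, 8.01 and 8.16 to 7.63, 7.33 and 7.36 (change -0.70, SE 0.125, limma adjusted p = 0.00301; named after its value was seen). Of 27 proteases of the matrix and their inhibitors 8 rose and 1 fell (median 0.33). Adamts1, which cuts proteoglycans, went from 7.91, 7.43 and 7.01 to 10.11, 10.18 and 10.43 (change 2.79, SE 0.193, limma adjusted p = 2.43e-06), and Timp1, an inhibitor of metalloproteinases, from 6.03, 6.07 and 6.36 to 8.26, 8.83 and 8.70 (change 2.45, SE 0.188, limma adjusted p = 7.7e-06). Mep1a, a brush border metalloprotease, fell by 1.53 (adjusted p = 0.00318).

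Of 16 markers of fibroblasts and mural cells 5 rose and none fell (median 0.38), with 2 called without CTL rat 1 or W0 rat 3, and 3 without CTL rat 2, with the 6 arrays alone or under either scaling. Des, the muscle intermediate filament desmin, rose by 0.76 (adjusted p = 0.00875), and Pdgfrb, the receptor of mural cells, by 0.52 (adjusted p = 0.0435). The call of Pdgfrb was lost without each CTL array (0.0841, 0.148 and 0.0807 for rats 1, 2 and 3), without W0 rat 1 (0.0503) or 3 (0.174), and under both scalings (0.0644 centred, 0.0636 with quantile normalization repeated), and with the 6 arrays alone (0.074). The mean level of the 16 markers was 6.01 to 6.17 in CTL and 6.25, 6.46 and 6.63 in W0, and its part in the rise of the collagens was not tested.

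Genes of the epithelial skeleton and adhesion rose in 9 of 19 cases and none fell (median 0.42). Vim, which encodes the mesenchymal filament vimentin, was at 8.73, 9.05 and 8.90 in CTL and 10.40, 10.30 and 10.48 in W0 (change 1.5, SE 0.162, limma adjusted p = 9.33e-05). Cd44, the hyaluronan receptor, went from 5.93, 5.64 and 5.80 to 7.21, 7.09 and 7.49 (change 1.47, SE 0.166, limma adjusted p = 0.000128), Cdh6, a cadherin of the forming nephron, from 6.28, 6.04 and 5.94 to 7.22, 7.79 and 7.68 (change 1.48, SE 0.148, limma adjusted p = 4.5e-05), and the keratin Krt18 rose by 0.99 (adjusted p = 0.00535). In none of these did a W0 kidney overlap with CTL. The adult cadherin Cdh1 had a change of 0.42 (adjusted p = 0.0542), which passed without W0 rat 2 (0.52, adjusted p = 0.0277) and, with all arrays, under the trended and robust variance (0.0367), without the genes of lowest level (0.0379) and with quantile normalization repeated (0.0446).

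Growth factor genes changed in 13 of 34 cases, 8 upwards and 5 downwards (median 0.14), and 7 were called with the 6 arrays alone. Igfbp1, which binds insulin-like growth factors, rose from 7.14, 7.35 and 7.34 to 11.03, 9.81 and 9.81 (change 2.94, SE 0.248, limma adjusted p = 1.52e-05), and Igf1 fell from 8.56, 7.89 and 8.22 to 6.90, 6.98 and 7.58 (change -1.07, SE 0.189, limma adjusted p = 0.00277; named after its value was seen). Gdf15, a stress hormone of the TGF-beta family, rose by 1.27 (adjusted p = 0.00527). Egf, which the distal tubule secretes into the urine, fell from 10.15, 10.18 and 10.50 to 9.70, 7.98 and 8.41 (change -1.58, SE 0.335, limma adjusted p = 0.0088). Its W0 rat 1 was much closer to CTL than the other two.

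The distal nephron had changes in both directions. Of 15 markers of the thick ascending limb and distal tubule 3 fell and 2 rose (median -0.18). Umod, which encodes uromodulin, fell from 11.67, 11.71 and 11.70 to 11.29, 10.68 and 11.13 (change -0.66, SE 0.141, limma adjusted p = 0.00941), while Kng1, which encodes kininogen, rose from 2.65, 3.49 and 3.35 to 4.73, 4.76 and 5.42 (change 1.81, SE 0.313, limma adjusted p = 0.0025). The sodium transporter Slc12a1 of this segment had a change of -0.28 (adjusted p = 0.276). In the collecting duct 2 of 20 markers rose and 1 fell (15% changed, against 9.4% of all genes), and the water channel Aqp2 had a change of 0.33 (adjusted p = 0.465). Sgk1, a kinase induced by aldosterone and glucocorticoids, rose by 1.08 (adjusted p = 0.0156; 0.0659 without CTL rat 2 and 0.0509 with the 6 arrays alone). The collecting duct count was 1 without CTL rat 1 or W0 rat 2 and 0 without CTL rat 2 or with the 6 arrays alone.

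Of 12 podocyte markers 3 rose (25%, against 4.99% of all genes) and none fell, with a median of 0.01. Without CTL rat 1, CTL rat 2 or W0 rat 3 the count was 1. The adaptor Cd2ap of the slit diaphragm rose by 0.48 (adjusted p = 0.0088), Kirrel1, a partner of nephrin there, by 0.50 (adjusted p = 0.0251) and the phospholipase Plce1 by 0.57 (adjusted p = 0.0388). The call of Kirrel1 was lost without CTL rat 1 (0.0739) or 2 (0.112), without W0 rat 3 (0.0968) and with the 6 arrays alone (0.085). That of Plce1 was lost without each CTL array (0.0526, 0.116 and 0.123 for rats 1, 2 and 3), without W0 rat 1 (0.085) or 3 (0.137), and under both scalings (0.0621 centred, 0.0733 with quantile normalization repeated). Nphs1, which encodes nephrin, had a change of -0.13 (adjusted p = 0.603). Of 23 endothelial markers 2 fell and none rose, with a median of 0.00. The share changed, 8.7%, was near the 9.4% of all genes. Vwf, the von Willebrand factor, was at 5.95, 5.44 and 5.72 in CTL and 5.03, 5.08 and 4.96 in W0 (change -0.68, SE 0.16, limma adjusted p = 0.0155; 0.0745 without CTL rat 1 and 0.0546 without W0 rat 3), and Ehd3, known from glomerular endothelium, fell by 0.53 (adjusted p = 0.0231; 0.0615 without CTL rat 1, 0.102 without CTL rat 3, 0.0789 without W0 rat 1 and 0.0746 with the 6 arrays alone). The endothelial count was 0 without CTL rat 1 and 1 without W0 rat 1 or 3 or with the 6 arrays alone.

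Of 17 measured genes of the circadian clock 1 rose and 3 fell (median -0.01). Nr1d1, a repressor within the clock, fell from 9.89, 9.82 and 9.36 to 8.35, 8.05 and 8.37 (change -1.43, SE 0.141, limma adjusted p = 4.17e-05). Of the output factors of the PAR bZIP family, Dbp fell from 8.18, 8.85 and 7.37 to 6.37, 6.86 and 7.05 (change -1.38, SE 0.28, limma adjusted p = 0.00695) and Tef by 1.0 (adjusted p = 0.00775), and Nfil3, the repressor that competes with them for the same sites, rose from 5.83, 5.38 and 6.02 to 7.99, 6.98 and 7.06 (change 1.60, SE 0.235, limma adjusted p = 0.000824). Per1 was at 6.62, 6.62 and 6.21 in CTL and 8.09, 7.64 and 6.59 in W0 (change 0.96, adjusted p = 0.0672; 1.38 and 0.0037 without W0 rat 3). The hour at which each rat was killed is not given in the sources used here.

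The share of members called in the other lists was 27.3% for hypoxia response and 20.8% for the lysosome, against 9.4% of all genes. It was 15% for cytochrome P450 genes. For sterol and fatty acid synthesis (11.1%) and for heat shock and unfolded protein genes (8.7%) it was near that of all genes. Hypoxia response genes rose in 5 and fell in 1 of 22 cases (median 0.22), with the collagen crosslinker Lox higher by 1.36 (adjusted p = 0.000311) and Ndrg1 by 0.78 (adjusted p = 0.00962), and 3 were called without CTL rat 1, CTL rat 2 or W0 rat 1, or with the 6 arrays alone. In the lysosome 4 of 24 genes rose and 1 fell (median 0.19), led by the protease Ctsd from 9.94, 9.89 and 10.04 to 10.89, 11.19 and 11.08 (change 1.1, SE 0.122, limma adjusted p = 0.000115), with 2 called without CTL rat 1 or W0 rat 3, or with the 6 arrays alone. Of 23 heat shock and unfolded protein genes 2 rose (Hspb1, a small heat shock protein, by 1.12, adjusted p = 0.00691; 1 called without CTL rat 1, W0 rat 1 or W0 rat 2). Sterol and fatty acid synthesis had 1 risen and 1 fallen gene of 18 (0 without CTL rat 3 or W0 rat 1, 1 without CTL rat 1, CTL rat 2 or W0 rat 2, or with the 6 arrays alone). Cytochrome P450 genes had 1 risen and 2 fallen of 20 (1 without CTL rat 1 or 2, 0 without CTL rat 3 or W0 rat 3).

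**Figure D5:**
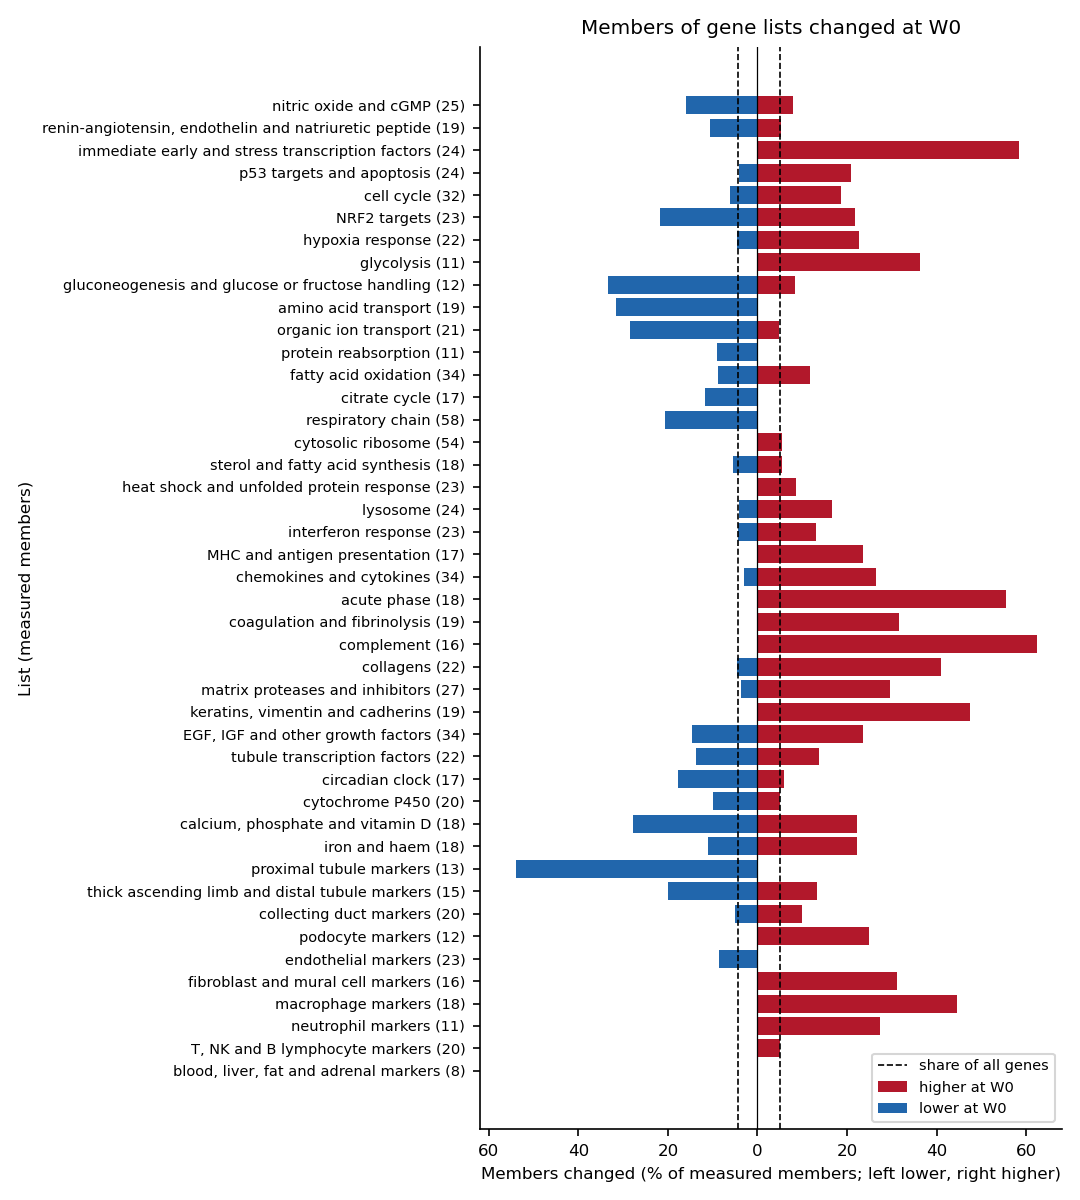
Share of the measured members of each gene list (y axis, number measured in parentheses) that rose (red, right) or fell (blue, left) at W0, in percent (x axis), with the shares of all genes, 4.99% and 4.41%, as dashed lines. Complement, immediate early and acute phase genes had the largest shares of risen members and proximal tubule markers the largest share of fallen members.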

How the data were processed

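RNA from a piece of each kidney was amplified with a NuGEN kit and hybridized to Affymetrix rat gene arrays, 1 array per rat. What the authors deposited are log2 values made with RMA (background correction, quantile normalization and summary over probes; 20944 probesets, 12 arrays, 1.5244 to 12.885, array medians 5.747 to 5.922); nothing was added to that scaling. RMA pulls large differences together, so folds may be understated. The software that ran RMA, scan dates and batches are not given in the sources used here, and the number of arrays limits the precision (median standard error 0.145). Only the 18510 probesets with a single gene symbol were kept (575 had several, 1859 none), and where probesets shared a symbol (290 genes) the one with the highest mean over the 12 arrays stood for the gene, which left 18166 genes; such probesets disagreed on the direction for 86 genes, and were called in opposite directions for 0. Genes of the lists without such a probeset were not analysed here (927 of 1061 listed genes were measured).

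W0 was compared with CTL in limma 3.58.1 (R 4.3.3), using all 4 groups of the series to estimate the spread (no trend, 13.84 degrees of freedom). Adjusted p values are those of Benjamini and Hochberg across the 18166 genes, and the threshold was 0.05. The 44 gene lists (34 pathways, 10 cell types) were written from general knowledge; the comparison and the lists were chosen with earlier results of these data known. Each list is described by its counts and median, with no test of the list. Genes named are the 20 largest rises and 20 largest falls, the first 2 members of each list and its 4 called members of largest change, and the 10 changed genes of largest SD in W0; genes outside this rule are stated as such. Promoter sequences are from RefSeq (GRCr8), matched by gene ID for 14503 of the genes. Alternatives tried were the 6 arrays alone, a trended and robust variance, centred or quantile normalized arrays, no low-level genes (the bottom quartile by mean), the mean of a gene's probesets, replicate number as a block, and leaving out each array. Python 3.11.15 with numpy 2.4.6, pandas 2.3.3 and matplotlib 3.10.9 served for counts and figures.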

Additional observations from a re-analysis of the deposited data

Results flagged for a closer look

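Probesets that carry no gene symbol or several symbols were left out of the comparison, and they also held changes between W0 and CTL. When all 20944 probesets were fitted together 1791 changed (limma, adjusted p under 0.05), and 134 of these were among the 2434 without a single symbol (5.51%), 62 higher and 72 lower. Of the 134, 99 had no symbol and 35 several. The largest fall among them was -3.32 (adjusted p = 0.00201), in a probeset at 10.64, 10.42 and 11 in CTL and 8.82, 6.79 and 6.49 in W0. The largest rise was 2.59 (adjusted p = 0.00481), in one at 5.77, 7.27 and 6.66 in CTL and 8.56, 9.21 and 9.70 in W0. In both the groups did not overlap, and what these probesets measure was not determined here.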

How the results depend on the processing

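The number of changed genes ran from 1070 (without CTL replicate 1) to 1498 (without W0 replicate 2) when single arrays were left out, that of risen genes from 555 to 827 and that of fallen genes from 478 to 698, against 1708, 906 and 802 with all arrays. Genes without overlap numbered 4813 and, with smaller groups, 6282 to 6965. With the 6 arrays of W0 and CTL alone 1199 genes changed, of which 1151 were among the 1708. The other alternatives gave 1706 to 1946 changed genes, and centring turned the split to 848 higher and 1011 lower (45.6% against 53% higher). The median change of all genes shifted by less than 0.1 under every alternative run. Of the 123 called genes named here 102 lost their call in none of the alternatives they could be tested in, 21 lost it in at least 1 and 0 changed sign; 4 of the 123 were removed by the filter on low levels and have no value there. The change of Sox9, which is close to 0, turned to -0.03 with centring, -0.01 with repeated quantile normalization, and ran from -0.06 to 0.13 when single arrays were left out (-0.06 without CTL replicate 2 or 3, -0.03 without W0 replicate 1). Of the 44 lists 22 had a count that moved by over 1.5 times without CTL replicate 1, 16 without W0 replicate 3, 15 without CTL replicate 2 and 13 with the 6 arrays alone; centring moved 4 (organic ion transport, citrate cycle, respiratory chain, and fibroblast and mural cell markers). The cause of these moves was not tested beyond the smaller number of arrays.

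Replicate numbers are shared by the groups in the labels. The deviations of same-numbered CTL and W0 arrays correlated at 0.122, 0.0211 and 0.0394. Those of different-numbered arrays correlated at -0.121, -0.0313, -0.00894, -0.00905 and -0.11, and at 0.0969 for CTL replicate 3 with W0 replicate 2. With 3 arrays per group these values cannot decide whether the numbers mark pairs. The labels do not say that they do, so the main fit did not take them as pairs. With the replicate block 1860 genes changed, 974 higher and 886 lower. Under it Cdh1 (adjusted p = 0.0413), Per1 (0.0473) and Slc22a8 (0.00891) passed and Prkg2 (0.0505) did not, and 4 endothelial markers were called in place of 2. No other named gene that was followed in the alternatives changed its call. Non-overlap has no value for fits that use the same levels (the 6 arrays alone, the trended variance and the block).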
